A study of Mus musculus with 816 samples.

Results

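Primary mouse microglia, the resident macrophages of the brain, were exposed for 24 h to lipopolysaccharide (LPS) at a low or a high dose, and the comparison described here asks which genes had already reached their level at the low dose and which were higher or lower still at the high dose. The low dose (LPS_lo) was 0.00001 ug/ul, or 10 ng/ml, in 7 cultures, and the high dose (LPS_hi) was 0.0001 ug/ul, or 100 ng/ml, in 18 cultures. Cultures were chosen by their treatment, dose and duration labels, with LPS alone as the stimulus. These 25 cultures, with 40 untreated cultures (None) at 24 h as baseline, belong to a series of 816 samples, of which 784 are cultures. The cells came from a commercial supplier of neonatal mouse microglia and were grown in 96-well plates, so all 3 groups shared the same source and medium. A replicate is a well. The low-dose wells came from 2 lots of cells and the other wells from 3, with every plate holding a single lot, and the study drew each condition from more than 1 day of experiments. Wells of a plate therefore share a lot, and p-values measure the spread between wells.

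The layout bears on every value below. Both doses were present on only 2 culture plates. Plate 1 held 3 low-dose, 2 high-dose and 10 untreated cultures of 1 cell lot, and plate 2 held 4 low-dose, 4 high-dose and 8 untreated cultures of another lot. The remaining 12 high-dose cultures and 22 untreated cultures were on 4 plates without the low dose. Plate was therefore a term of the main fits, and values within plates 1 and 2 are given beside the pooled ones for the genes the results turn on. The depth of a library, estimated from the most common low value as the worth of 1 read, ranged from about 1088773 to 18941225 reads, with medians of 2829654 in the low-dose, 5246369 in the high-dose and 5357076 in the untreated cultures. Values are CPM, read counts scaled to the mapped reads of each library, so the precision of a low value is limited by these depths. No pair of LPS libraries was identical, and 15 of 17 microglial markers had a median above 5 CPM in all 3 groups. The exceptions were P2ry12, with medians of 3.49 CPM in untreated, 1.95 CPM in low-dose and 0.402 CPM in high-dose cultures, and Tmem119, with 14.6, 10.6 and 1.64 CPM. Summed over 8 markers each, fibroblast and mural genes had medians of 116 CPM in untreated, 15.9 CPM in low-dose and 50.3 CPM in high-dose cultures, and monocyte and perivascular macrophage genes 98.3, 9.87 and 22.2 CPM. Identity genes of microglia and macrophages summed to medians of 26415, 29999 and 28458 CPM. The largest part of that sum was Fcer1g, with medians of 9935, 18804 and 18678 CPM, while Csf1r had 3927, 859 and 881 CPM. Of the 12 identity genes, 1 was called higher and 3 lower than untreated at the low dose, and 0 and 4 at the high dose. The part of other cell types in the results below was not tested, and in bulk cultures fewer cells of a type and less RNA per cell cannot be told apart.

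LPS is a component of the outer membrane of Gram-negative bacteria. It is handed by the LPS-binding protein and CD14 to the receptor TLR4 with its partner MD-2 (gene Ly96). The adaptors MyD88 and TIRAP lead from there to NF-kB and MAP kinases, which induce inflammatory cytokines, while the adaptors TRIF and TRAM lead to interferon beta and, through its receptor, to interferon-stimulated genes. Several induced proteins, among them A20 (Tnfaip3), IRAK-M (Irak3) and IkB-alpha (Nfkbia), restrain the pathway. In microglia LPS is also known for raising nitric oxide and prostaglandin synthesis and for lowering genes of the resting state.

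Each dose changed a large share of the 11849 genes that were above 5 CPM in at least 4 of the 65 cultures. At the low dose 823 genes (6.95% of those tested) were higher than in untreated cultures and 1794 (15.1%) were lower, by limma with Benjamini-Hochberg adjusted p < 0.05 and at least a 2-fold difference. At the high dose 814 genes (6.87%) were higher and 1981 (16.7%) were lower. Both contrasts used the same untreated cultures. The direct contrast of the doses called far fewer genes, at adjusted p < 0.05 and at least a 1.5-fold difference. It found 24 genes higher at the high dose (0.203%) and 19 lower (0.16%), while 1247 genes had an unadjusted p under 0.05. An exact rank-sum test per gene without plate found 0 genes after adjustment and 1098 at an unadjusted p under 0.05. With the values rescaled by median-of-ratios factors the split was 37 higher and 11 lower.

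The genes called against untreated cultures at either dose, 3405 in all, were sorted by the direct contrast. A response was named graded where both doses and the dose contrast were called and the high dose lay further from the untreated level, and this held for 23 genes. It was named high dose only for 13 genes, where the low dose was not called against untreated cultures. A further 960 genes, 327 higher and 633 lower than untreated, were called at both doses in the same direction and had a 95% interval of the dose difference within 2-fold, and these are described as similar at both doses. Over all genes tested, 50.3% had an interval within 2-fold. Only Per1 and Nbas had a smaller response at the high dose, with Nbas named after its values were seen. The other 2407 genes were not placed by these criteria and are called undetermined. Of these 608 were called at the low dose alone and 775 at the high dose alone, which does not show a difference between doses, and 291 had an interval within 2-fold. The intervals reached a median of 0.71 on the log2 scale to either side of the difference.

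Of the 24 genes higher at the high dose, 17 belonged to a pathway list used here, as did 271 (2.29%) of the 11849 genes tested, and the 17 included acute cytokines, chemokines and enzymes of nitric oxide, itaconate and prostaglandin synthesis. The lists were chosen with earlier results of these data known, so the count is no evidence about them. On plates 1 and 2, 6 of the 24 genes had no overlap between the doses on either plate, namely Nos2, Slc7a2, Il1a, Il1b, Ptges and Malt1. Over all genes tested 0.219% were higher at the high dose in this way. In 21 of the 24 the difference had the same sign on both plates, the exceptions being Ccl5, Ccl22 and Syt7. With plates disregarded, 0 of the 24 were apart over all cultures. All low-dose cultures were on plates 1 and 2, so the calls used the same wells and these counts are no separate support for them. Malt1 and Syt7 were named after their values were seen.

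Nos2 (chr11:78920787-78960254, plus strand; gene coordinates are RefSeq's on GRCm38.p6) encodes the inducible nitric oxide synthase and had the largest rise between doses among the genes called. On plate 1 it was at 66.5, 83.3 and 133 CPM in the low-dose cultures and at 142 and 290 CPM in the high-dose cultures. On plate 2 it was at 33.5, 241, 353 and 565 CPM at the low dose and at 1480, 1726, 1867 and 2055 CPM at the high dose. The doses were apart on both plates, but the high dose on plate 1 fell within the low-dose range of plate 2. Over all plates the low-dose cultures ranged from 33.5 to 565 CPM with a median of 133, the high-dose cultures from 63.4 to 2055 CPM with a median of 617, and the untreated cultures from 0 to 22.0 CPM with a median of 2.64. The plate-adjusted difference between doses was 3.31 ± 0.41 on the log2(CPM + 1) scale (standard error; n = 7 and 18; adjusted p = 2.65e-07). Within plates the difference of means was 1.16 on plate 1 and 3.13 on plate 2.

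The size of the pooled difference for Nos2 rests in part on plates without the low dose, which enter through their untreated cultures. There Nos2 had an untreated median of 0.954 CPM, against 12.8 CPM on plate 1 and 12.5 CPM on plate 2. A fit to plates 1 and 2 alone gave 2.51 (95% interval 1.55 to 3.47, adjusted p = 0.0161). Slc7a2, which carries arginine, the substrate of nitric oxide synthase, into the cell, varied less. On plate 1 it was at 289, 337 and 353 CPM at the low dose and at 716 and 888 CPM at the high dose. On plate 2 the values were 224, 244, 245 and 302 CPM against 579, 629, 699 and 802 CPM. Every high-dose culture on these plates was therefore above every low-dose culture, also across the plates. On the plates without the low dose the high-dose cultures ranged from 275 to 1503 CPM, and replicate 14, at 275 CPM, lay within the low-dose range. The pooled difference was 1.22 ± 0.24 (adjusted p = 0.00357), the within-plate differences were 1.29 and 1.41, and Slc7a2 was 1 of 3 genes, with Glul and Ntpcr, whose dose call was kept in all 36 limma settings tried. Without each low-dose culture in turn, 16 of the 43 calls were kept every time.

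**Figure D1:**
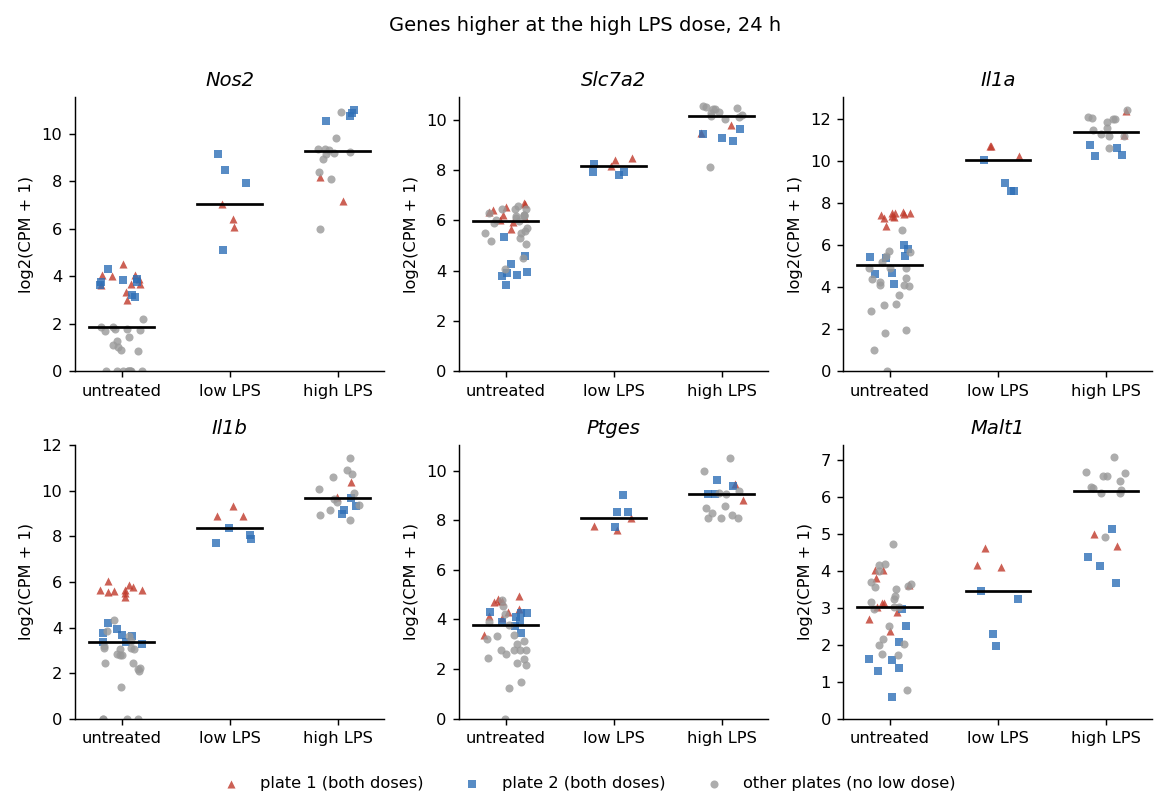
Level in each culture, as log2(CPM + 1), of 6 genes called higher at the high dose and apart on both shared plates, in untreated (n = 40), low-dose (n = 7) and high-dose cultures (n = 18) at 24 h. Symbols mark the plate and black bars the group medians. On the plates with both doses the high-dose cultures lie above the low-dose cultures of the same plate. For Nos2, Il1a, Il1b and Ptges the untreated median over the other plates is below that of each shared plate.

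Of 13 genes of nitric oxide, itaconate, arginine and prostaglandin metabolism tested, 11 were higher than untreated at each dose and 5 were graded. Irg1, which makes itaconate, had medians of 413 CPM at the low and 551 CPM at the high dose, with 9.21 CPM in untreated cultures, and a difference of 1.40 ± 0.33 (adjusted p = 0.035). Within plates it was 0.57 and 0.37, and the fit to the shared plates gave 0.57 with an adjusted p of 0.703. Ptgs2, the inducible cyclooxygenase, rose by 2.06 (adjusted p = 0.0113; 1.27 and 1.76 within plates), and Ptges, the inducible prostaglandin E synthase, by 1.68 (adjusted p = 0.00503; 1.32 and 0.92). Ptges was at 195 to 273 CPM at the low and 446 to 712 CPM at the high dose on plate 1, and at 208 to 520 CPM against 524 to 782 CPM on plate 2. Ass1, which regenerates arginine, Gch1, which makes the cofactor of nitric oxide synthase, and Sod2, the mitochondrial superoxide dismutase, were similar at both doses. Their low-dose differences from untreated were 3.38, 2.19 and 3.66, and their differences between doses 0.15, 0.30 and 0.56. In the fit to the shared plates the dose difference of Ass1 was -0.47 (-1.43 to 0.48), and Ass1 was undetermined there. The list had a median dose difference of 0.56, beside -0.08 over all genes tested.

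Among 17 acute cytokines tested, 4 were graded (Tnf, Il1a, Il1b and Il6) and Il12a was called at the high dose only. Il1a (chr2:129299610-129309972, minus strand), the alpha form of interleukin-1, was at 1225, 1673 and 1696 CPM at the low dose and 2376 and 5330 CPM at the high dose on plate 1. On plate 2 it was at 380, 382, 497 and 1071 CPM against 1224, 1242, 1593 and 1707 CPM. The low dose on plate 1 thus reached the level of the high dose on plate 2, while the doses were apart within each plate. The pooled difference was 2.58 ± 0.52 (adjusted p = 0.00503), and the fit to the shared plates gave 1.40 (0.87 to 1.94, adjusted p = 0.0161). Il1b (chr2:129364570-129371139, minus strand), the secreted beta form, was at 476 to 638 CPM at the low dose and at 843 and 1359 CPM at the high dose on plate 1. On plate 2 it was at 206 to 330 CPM against 510 to 831 CPM. Its pooled difference was 2.26 ± 0.43 (adjusted p = 0.00286), and that of the shared plates 1.25 (0.79 to 1.72, adjusted p = 0.0161). As for Nos2, the untreated medians of these genes were lower on the plates without the low dose, at 17.1 CPM for Il1a and 6.0 CPM for Il1b, than on plate 1, at 175 and 48.7 CPM, or plate 2, at 41.7 and 11.6 CPM.

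Il6, a cytokine of the acute-phase response, was at 3.77, 9.42 and 12.3 CPM at the low dose on plate 1 and at 21.1 and 72.5 CPM at the high dose. On plate 2 the low-dose values spread from 0 to 70.7 CPM and the high-dose values from 31.6 to 47.8 CPM, so that the groups overlapped through a single low-dose culture, replicate 4. The pooled difference was 2.82 ± 0.44 (adjusted p = 0.000107), with 2.21 and 2.09 within plates, and 2.18 (1.01 to 3.34, adjusted p = 0.153) in the fit to the shared plates. Tnf, the early NF-kB target, had a low-dose median of 830 CPM and a high-dose median of 1394 CPM. It differed by 1.39 on plate 1 and by 0.50 on plate 2, where low-dose replicate 4, at 1552 CPM, lay above 3 of the 4 high-dose cultures. The pooled difference was 1.3 ± 0.31 (adjusted p = 0.0344). Il12a, a subunit of interleukin-12, was listed at 0 in all 7 low-dose cultures and had a high-dose range of 0 to 28 CPM with a median of 4.07 CPM, so no fold is given. Its dose contrast had an adjusted p of 0.0185, but on plate 2 it was also at 0 in 3 of the 4 high-dose cultures. Il12b and Il27 missed the threshold between doses, with differences of 1.47 (0.72 to 2.23, adjusted p = 0.0546) and 1.46 (0.60 to 2.32, adjusted p = 0.118). On plates 1 and 2 they were 0.81 and 1.59 for Il12b and 1.23 and 0.60 for Il27. Il18, Il15 and Ebi3 were similar at both doses, with low-dose differences from untreated of 2.22, 1.31 and 1.91. The list had a median dose difference of 0.34.

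All 16 chemokines tested were higher than untreated at each dose. The dose contrast called 4 of them, Ccl3, Ccl4, Ccl5 and Ccl22. Ccl3, which attracts monocytes, was at 84.8, 111 and 129 CPM at the low and 298 and 429 CPM at the high dose on plate 1, and at 315 to 632 CPM against 504 to 602 CPM on plate 2, where the groups overlapped. Its pooled difference was 1.53 ± 0.26 (adjusted p = 0.000653), with 1.73 on plate 1 and 0.43 on plate 2. Ccl4, a related chemokine, had medians of 845 and 921 CPM and a difference of 1.08 (adjusted p = 0.0356; 1.11 and 0.44 within plates). Ccl5, which attracts T cells and monocytes, had a pooled difference of 1.39 (adjusted p = 0.0344), but -0.15 on plate 1 and 0.61 on plate 2, and 0.37 (-0.08 to 0.81, adjusted p = 0.704) in the fit to the shared plates. Ccl22, a ligand of CCR4, was at 11.8 to 27.8 CPM at the low dose and at 3.50 and 14.7 CPM at the high dose on plate 1, but at 0.422 to 11.6 CPM against 59.2 to 110 CPM on plate 2. The opposite signs within plates, -1.09 and 4.15, stand beside a pooled difference of 2.25 (adjusted p = 0.0457). Ccl2, Ccl9 and Cxcl16 were similar at both doses and 9 chemokines were undetermined, including Cxcl1, Cxcl2 and Cxcl10. The list median between doses was 1.25 pooled but -0.10 on plate 1, 0.42 on plate 2 and 0.43 in the fit to the shared plates.

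**Figure D2:**
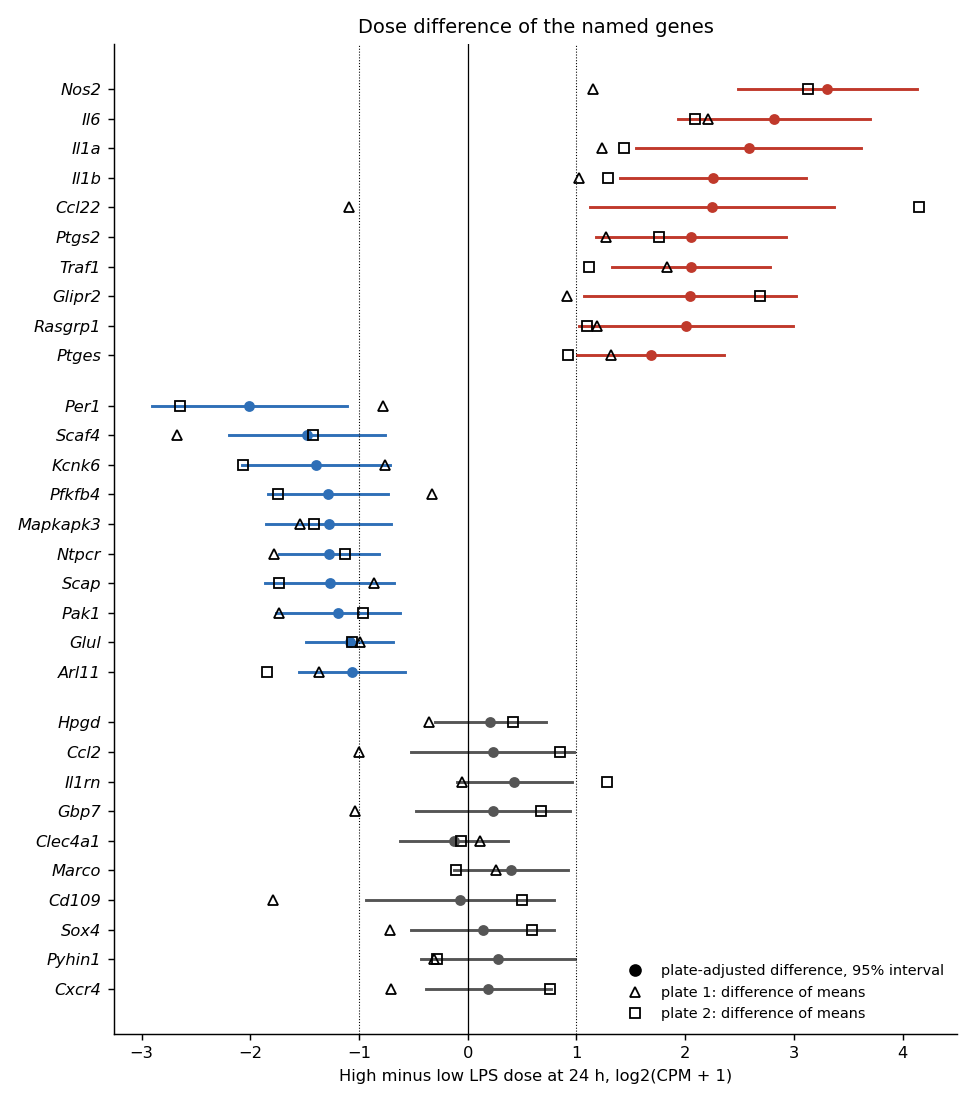
Difference between high and low dose at 24 h on the log2(CPM + 1) scale for the 10 largest rises (red), 10 largest falls (blue) and the 10 genes with the largest low-dose response among those similar at both doses (grey). Filled circles and lines are plate-adjusted differences with 95% intervals, open triangles and squares the differences of means on plates 1 and 2, and dotted lines mark a 2-fold difference. Nos2 stands at 3.31 with 1.16 and 3.13 within plates, while Ccl22 has opposite signs within plates, -1.09 and 4.15.

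Of 14 genes of the receptor and its adaptors 3 were higher than untreated at each dose, 1 was lower at the high dose and 10 were called at neither dose. Between doses 0 were called, with a median difference of -0.13. Cd14, the co-receptor, rose by 1.83 at the low and 2.66 at the high dose, with a difference of 0.83 (0.26 to 1.40, adjusted p = 0.216), and Myd88 was similar at both doses, at 1.69 and 1.52. Tlr4 itself was not called, at 0.46 and -0.30 against untreated.

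Of 15 NF-kB subunits and inhibitors, 8 were higher than untreated at the low dose and 9 at the high dose, and only Nfkb2 was called between doses. Nfkb2, the precursor of the p52 subunit, was at 190, 197 and 218 CPM at the low and 364 and 460 CPM at the high dose on plate 1. On plate 2 it was at 169 to 270 CPM against 226 to 358 CPM, with overlap. The pooled difference was 0.89 ± 0.22 (adjusted p = 0.0394), with 1.02 and 0.38 within plates. Nfkbia, the inhibitor that NF-kB itself induces, was at 543 to 749 CPM at the low dose and 716 to 1527 CPM at the high dose, and its difference of 0.60 (0.29 to 0.92, adjusted p = 0.0568) put it among the similar genes by a narrow interval that does not contain 0. Nfkb1, Relb, Bcl3 and Ikbke were also similar, but Bcl3 was undetermined in the fit to the shared plates, at 0.27 (-0.67 to 1.21). Traf1, an NF-kB-induced adaptor of TNF receptors outside this list, rose between doses by 2.05 ± 0.37 (adjusted p = 0.00114), from 31 to 57.1 CPM to 127 and 219 CPM on plate 1 and from 53.4 to 149 CPM to 124 to 235 CPM on plate 2. Malt1, a paracaspase that feeds into NF-kB, rose by 1.51 ± 0.32 (adjusted p = 0.0125), from 16.1 to 23.6 CPM to 24.2 and 30.7 CPM on plate 1 and from 2.90 to 9.91 CPM to 11.7 to 33.9 CPM on plate 2.

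Among 13 feedback brakes of TLR signalling, 10 were higher than untreated at the low dose and 11 at the high dose. Tnfaip3, the deubiquitinase A20, was the single member called between doses, at 64.1, 78.9 and 104 CPM against 98 and 187 CPM on plate 1 and at 67.5 to 185 CPM against 230 to 393 CPM on plate 2. The pooled difference was 1.19 ± 0.24 (adjusted p = 0.00503), with 0.74 and 1.53 within plates. On both plates 4 of the 13 were higher at the high dose with no overlap, as were 0.219% of all genes tested. The contrast used the same wells, so this count is no separate support for a difference. Socs1, Socs3 and Dusp2, which damp cytokine and MAP kinase signals, were among the 4 but missed the adjusted threshold. Their differences were 1.22 (adjusted p = 0.0669), 1.59 (adjusted p = 0.0512) and 1.34 (adjusted p = 0.13). Socs1, for example, was at 317 to 331 CPM against 456 and 555 CPM on plate 1 and at 96.4 to 157 CPM against 175 to 346 CPM on plate 2. For Irak3 the interval was narrow around 0. It was at 106 to 207 CPM with a median of 173 at the low dose and at 110 to 304 CPM with a median of 160 at the high dose, beside 11.5 CPM in untreated cultures. The difference was 0.02 (-0.49 to 0.52), and Irak3 was similar at both doses in all 36 settings. Tnip1, Tnip3 and Il1rn were similar as well.

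Promoter sequence is shown for 3 genes of these groups, Il6 as a graded gene, Nfkbia as a similar NF-kB target and Ifit3 as the interferon-responsive hub gene of a module. Windows are from RefSeq on GRCm38.p6, written 5′ to 3′ on the strand of the gene, with the motif match in capitals. Il6 is at chr5:30013055-30013094 (plus strand), Nfkbia at chr12:55492652-55492691 (minus strand) and Ifit3 at chr19:34583392-34583431 (plus strand).
Il6: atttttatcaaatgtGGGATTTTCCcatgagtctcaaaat
Nfkbia: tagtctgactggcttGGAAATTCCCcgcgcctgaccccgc
Ifit3: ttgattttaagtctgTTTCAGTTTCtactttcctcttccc
The first 2 hold a match to the kappaB consensus, for Nfkbia on the opposite strand, 44 and 29 bases before the start, and the third a match to the interferon-response motif, GAAA, any 2 bases and GAAA, read on the opposite strand, 122 bases before the start. Both motifs were searched on both strands in the 250 bases before the start. The kappaB consensus was found in 10.6% of the promoters of all genes tested that had an entry and the interferon-response motif in 3.37%. Entries existed for 74.5% of the genes tested and for 70.8% of the 24 genes higher at the high dose, too few for a comparison of shares, so that comparison is void. Among the graded genes with an entry, Il6, Tnfaip3, Nfkb2 and Oasl1 held a kappaB match. A match is a description of letters only.

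Interferon-stimulated genes responded to both doses. Of 36 tested, 35 were higher than untreated at the low dose and all 36 at the high dose, with median differences of 3.32 and 3.91. Only Oasl1, an oligoadenylate synthetase-like protein, was called between doses, while 13 were similar and 22 undetermined. Oasl1 was at 1118 to 1193 CPM at the low and 841 and 1592 CPM at the high dose on plate 1, and at 583 to 1741 CPM against 2178 to 3583 CPM on plate 2. The doses thus overlapped on plate 1 and were apart on plate 2, and the pooled difference of 1.65 (adjusted p = 0.00529) stands beside 0.01 and 1.22 within plates. Ifit3, an antiviral protein, had medians of 2643 CPM at the low and 2054 CPM at the high dose, with 104 CPM in untreated cultures. Its difference was 0.92 pooled (0.26 to 1.58, adjusted p = 0.248), -0.64 on plate 1 and 0.92 on plate 2. Stat2, Irf1, Oas2, Oas3 and Zbp1 were among the similar genes. The list median between doses was 0.48 pooled, -0.27 on plate 1 and 0.37 on plate 2, and 0.20 in the fit to the shared plates. The high-dose response of the list also varied by plate, from 2.64 on plate 1 and 3.98 on plate 2 to between 2.90 and 4.75 on the others.

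Of 18 antigen presentation genes tested, 14 and 16 were higher than untreated at the low and the high dose, 0 were called between doses and 8 were similar, among them B2m, the light chain of class I molecules, Tap1, the peptide transporter, and the immunoproteasome subunits Psmb8 and Psmb9. Of 24 acute-phase, antimicrobial and protease genes, 15 and 16 were higher and 3 and 4 lower than untreated, and 0 were called between doses. The list included Lcn2, an iron-scavenging lipocalin, which rose by 4.55 at the low and 6.39 at the high dose with a difference of 1.84 (0.76 to 2.92, adjusted p = 0.117), and of 0.90 on plate 1 and 1.16 on plate 2. Of its members 15 were undetermined.

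**Figure D3:**
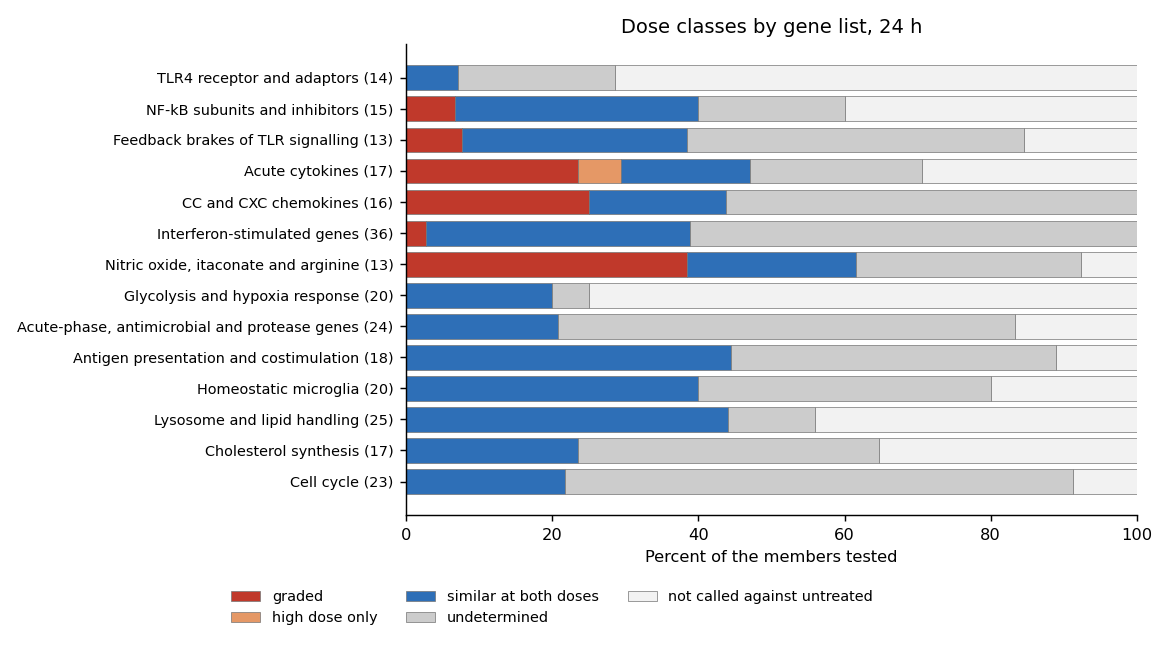
Share of the tested members of each pathway list, in percent, by dose class at 24 h. The numbers in brackets are members tested, and the classes are graded, high dose only, similar, undetermined and not called against untreated. Graded genes make up 5 of 13 in the nitric oxide list, 4 of 17 acute cytokines, 4 of 16 chemokines, 1 of 36 interferon-stimulated and 0 of 25 lysosome genes. Over all 11849 genes tested 23 are graded. Of the interferon-stimulated genes 22 are undetermined. The lists were chosen with earlier results known, so these counts describe them only.

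The 19 genes lower at the high dose belonged to none of the pathway lists. All 19 were lower on both shared plates, and 4 of them (Glul, Arl11, Mapkapk3 and Tmem51) had no overlap on either plate, beside 0.236% of all genes tested. With plates disregarded, 0 of the 19 were apart over all cultures. The calls used the same wells, so these counts are no separate support for them. Relative to untreated cultures 10 of the 19 were lower at the high dose only and 2 were graded, while 5 were not called against untreated at either dose. Glul (chr1:153899944-153909723, plus strand), glutamine synthetase, was at 113, 169 and 169 CPM at the low and 67.2 and 82.2 CPM at the high dose on plate 1. On plate 2 it was at 55.3, 65.3, 91.2 and 116 CPM against 22.9, 40.1, 43.0 and 47.2 CPM. Untreated cultures ranged from 126 to 292 CPM with a median of 196, and the doses were apart on both plates. The difference between doses was -1.09 ± 0.20 (adjusted p = 0.0019), with -0.99 and -1.07 within plates and -1.10 (adjusted p = 0.0437) in the fit to the shared plates.

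Arl11, a small GTPase of the ARF family, was at 101 to 136 CPM at the low and 37.6 and 54.9 CPM at the high dose on plate 1, and at 89.9 to 246 CPM against 20.3 to 60.8 CPM on plate 2. Its difference was -1.07 pooled (adjusted p = 0.0255) and -1.70 in the fit to the shared plates (-2.17 to -1.24, adjusted p = 8.21e-05). On the plates without the low dose the 12 high-dose cultures ranged from 36.2 to 198 CPM. Their median of 91.7 CPM lay within the low-dose range. The call of Arl11 was lost in the fit without plate (limma adjusted p = 0.154) and kept in 4 of the 7 fits without 1 low-dose culture. Ntpcr, a nucleoside triphosphatase, had medians of 111 CPM in untreated, 124 CPM in low-dose and 53.4 CPM in high-dose cultures. It overlapped on plate 2 through a single low-dose culture at 48.0 CPM, and its difference was -1.27 ± 0.23 (adjusted p = 0.00135; -1.78 and -1.13 within plates). Mapkapk3, a kinase activated by stress MAP kinases, was at 15.5 to 24.1 CPM against 4.37 and 7.35 CPM on plate 1 and at 24.3 to 55.8 CPM against 6.10 to 21.6 CPM on plate 2, with a difference of -1.28 (adjusted p = 0.0213). Tmem51, a transmembrane protein, was at 9.56 to 13.7 CPM against 0 and 6.86 CPM on plate 1 and at 1.90 to 5.30 CPM against 0 to 1.68 CPM on plate 2. At such levels the values rest on few reads.

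**Figure D4:**
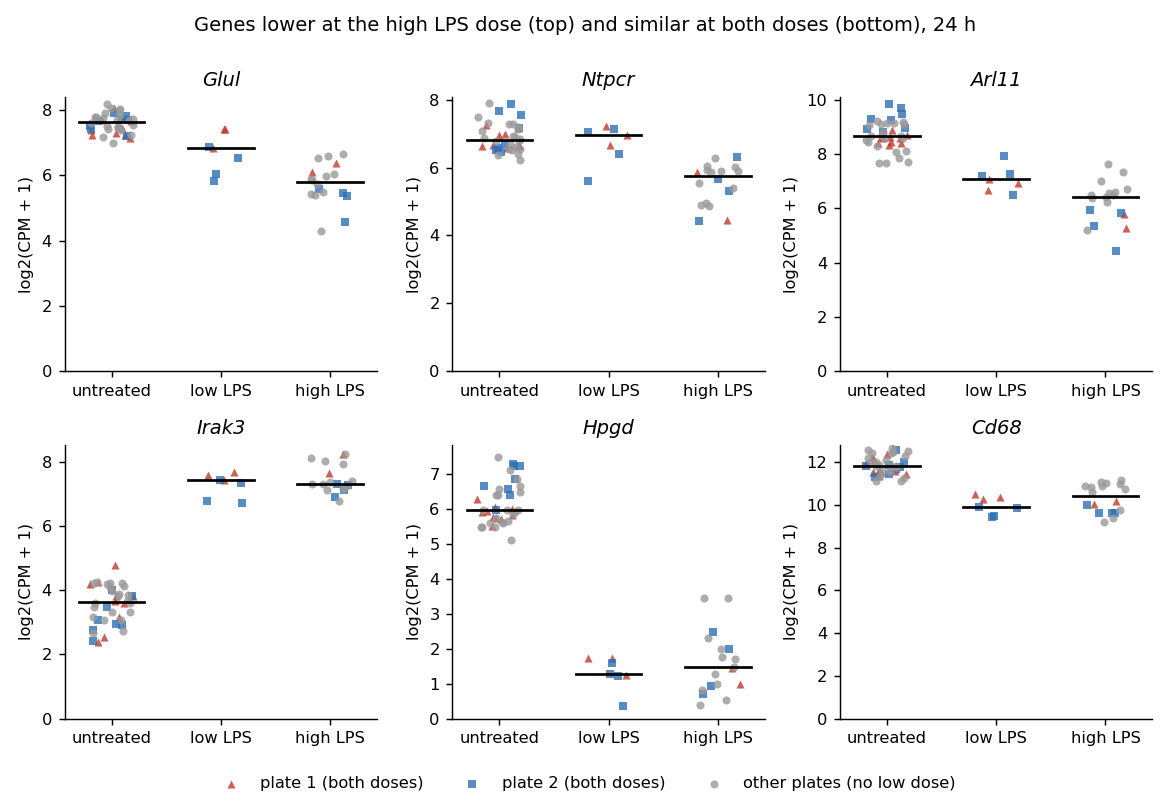
Level in each culture, as log2(CPM + 1), of Glul, Ntpcr and Arl11, lower at the high dose, and of Irak3, Hpgd and Cd68, similar at both doses, in untreated (n = 40), low-dose (n = 7) and high-dose cultures (n = 18) at 24 h. Symbols mark the plate and black bars the group medians. Glul has medians of 196, 113 and 54.2 CPM in the 3 groups, whereas Irak3 has 11.5, 173 and 160 CPM.

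Of the other genes with the largest falls, Per1, a repressor of the circadian clock, was at 20.2 to 102 CPM with a median of 39.9 at the low dose and at 0.545 to 65.2 CPM with a median of 19.7 at the high dose, beside 23.1 CPM in untreated cultures. Its low-dose response of 1.28 and high-dose response of -0.72 gave a difference of -2.01 (adjusted p = 0.0198; -0.78 and -2.65 within plates). Kcnk6, a potassium channel, and Pfkfb4, a regulator of glycolysis, differed from untreated by 0.09 and 0.12 at the low dose and by -1.30 and -1.16 at the high dose. The dose differences on plates 1 and 2 were -0.76 and -2.07 for Kcnk6 and -0.33 and -1.75 for Pfkfb4. Scap, the escort of the sterol-regulated transcription factors, and Pak1, a kinase activated by Rac, fell between doses by 1.27 and 1.19 on the log2 scale (adjusted p = 0.0344 and 0.0367), with -0.86 and -1.74 on plates 1 and 2 for Scap and -1.73 and -0.97 for Pak1. Scaf4, an RNA processing factor, was at 8.29 to 25 CPM at the low and 0 to 25 CPM at the high dose, with a difference of -1.48 (adjusted p = 0.0394) and of -2.68 and -1.42 on plates 1 and 2, and was not called against untreated cultures. Txnip, an inhibitor of thioredoxin named after its values were seen, fell by 1.04 (adjusted p = 0.00503), with -0.79 on plate 1 and -0.80 on plate 2. In the other direction, Glipr2, a Golgi-associated protein, and Rasgrp1, an activator of Ras, rose by 2.04 (adjusted p = 0.0367) and 2.01 (adjusted p = 0.0394). In the fit on plates 1 and 2 alone, the difference of Rasgrp1 was 0.95 (-0.35 to 2.25, adjusted p = 0.734) and that of Glipr2 2.05 (0.92 to 3.17, adjusted p = 0.163). On plate 1 and plate 2 the differences were 0.91 and 2.69 for Glipr2 and 1.19 and 1.09 for Rasgrp1. Rasgrp1 was at 0 in 3 of the 4 low-dose and 2 of the 4 high-dose cultures on plate 2.

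The largest low-dose responses among the similar genes were as follows. Hpgd, which degrades prostaglandins, fell from 33.4 to 179 CPM in untreated cultures to 0.290 to 2.36 CPM at the low and 0.315 to 10.1 CPM at the high dose. The groups did not overlap with untreated, and the difference between doses was 0.21 (-0.30 to 0.72). Both LPS groups were near 0, where values rest on few reads and the log2(CPM + 1) scale understates a difference between doses. Clec4a1, a C-type lectin receptor, rose from a median of 133 CPM to 3557 CPM at the low and 1826 CPM at the high dose. All high-dose cultures on plates 1 and 2 were at 2781 CPM or more, and the differences there were 0.11 and -0.06. Marco, a scavenger receptor, was at 1697 to 2276 CPM against 1771 and 2887 CPM on plate 1 and at 390 to 600 CPM against 394 to 430 CPM on plate 2, so that plates differed more than doses. Sox4, a transcription factor, Cxcr4, the receptor of Cxcl12, and Cd109, a membrane protein that binds TGF-beta, fell by 4.14, 4.07 and 4.23 at the low dose and by 4.01, 3.89 and 4.31 at the high dose. In the fit to the shared plates Cd109 was undetermined, with a dose difference of -0.44 (-1.57 to 0.69). Il1rn, the interleukin-1 receptor antagonist, was placed among the similar genes by the pooled difference of 0.43 (-0.10 to 0.96), but on plate 2 it was at 480 to 788 CPM at the low and 1438 to 1852 CPM at the high dose, a difference of 1.29. Ccl2 (0.23), the GTPase Gbp7 (0.24) and Pyhin1 (0.28), of the family of interferon-inducible DNA-binding proteins, also had pooled differences near 0. Across 36 settings Hpgd kept its place in all 36 and Clec4a1 in 35, whereas Ccl2 kept it in 19 and Pyhin1 in 18.

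Of 2429 genes called lower than untreated at either dose, 633 were similar at both doses and 12 were called lower between doses. Of 25 lysosome and lipid handling genes 13 were lower than untreated at each dose, 24 had a dose interval within 2-fold and 11 were similar. Cd68, a lysosomal membrane protein, was at 693 to 1468 CPM at the low and 596 to 2277 CPM at the high dose, beside 2231 to 6463 CPM in untreated cultures, and its difference between doses was -0.02 (-0.37 to 0.32). Apoe, Ctsd and Lipa differed from untreated by -1.92, -1.99 and -2.40 at the low dose and by -1.57, -2.11 and -2.49 at the high dose. Of 20 homeostatic microglial genes 14 were lower at each dose, 8 were similar, 8 were undetermined and 0 were called between doses. The plates differed here. On plate 1 the list had a median response of -1.06 at the low and -2.17 at the high dose, and on plate 2 of -2.44 and -2.47. The median dose difference of its members was -0.53 on plate 1 and -0.04 on plate 2. Trem2, a lipid-sensing receptor, fell by 2.84 at the low and 2.77 at the high dose. Of 23 cell cycle genes 21 were lower at the low and 20 at the high dose, and 16 were undetermined, among them Top2a, at 0.08 (-0.99 to 1.16). Of 17 genes of cholesterol synthesis 8 and 7 were lower and 4 were similar. Of 20 glycolysis and hypoxia genes 4 and 5 were higher than untreated, and 18 had an interval within 2-fold.

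Modules of co-expressed genes, which the study derived with these cultures among others and which are therefore not independent evidence, were counted in the same way. CY_red had 9 graded genes of 29 and a median dose difference of 1.18, CY_brown 5 of 33 with 0.69, and CY_turquoise 2 of 38 with 0.32. On plates 1 and 2 these medians were 0.67 and 0.50, 0.75 and 0.23, and 0.33 and 0.05. The interferon module BR_turquoise had 1 graded and 67 similar genes of 148, with 0.20, and its median was -0.27 on plate 1 and 0.18 on plate 2. TQ_yellow, with 11 and 24 of 56 genes lower than untreated at the low and the high dose, had 4 genes called lower between doses. Of the hub genes that mark modules, Irak3 was similar, whereas Clec4e, the receptor Mincle, and Naaa, a lysosomal amidase, were undetermined with differences of 1.01 (0.42 to 1.61, adjusted p = 0.118) and 1.6 (0.75 to 2.46, adjusted p = 0.0664). On plates 1 and 2 they differed by 0.71 and 0.30 for Clec4e and by 2.78 and 1.41 for Naaa.

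Cultures at 72 h gave a second set in which the same doses could be compared, with 11 low-dose, 13 high-dose and 25 untreated cultures, all of the lot on plate 2. Of 11457 genes tested, 77 (0.672%) were higher and 178 (1.55%) lower at the high dose. Of the 24 genes higher at 24 h, 19 could be tested at 72 h and 7 were called higher again, namely Il6, Il1a, Il1b, Ptgs2, Ptges, Ccl3 and Irg1. The differences at 72 h were 3.28 for Il6, 3.69 for Il1a, 2.83 for Il1b and 3.52 for Ptges, and 14 of the 19 were above 0. Of the 19 genes lower at 24 h, 0 were called lower at 72 h and 14 were below 0. Over the genes tested at both times the median dose difference at 72 h was -0.12, so values below 0 were the more common ones there too. The count of 14 therefore does not by itself show that the falls lasted. A test of the difference between the times called 92 of 12712 genes (0.724%), among them 3 of the 24 higher genes and 0 of the 19 lower ones. For Nos2 the difference was -0.84 at 72 h (-1.85 to 0.17) and 3.31 at 24 h, a change of -4.15 (adjusted p = 2.33e-05). In wells away from the middle of the plate stood 10 of the 13 high-dose and 2 of the 11 low-dose cultures at 72 h, compared with 6 of 18 and 1 of 7 at 24 h, and the part of well position at 72 h was not tested.

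**Figure D5:**
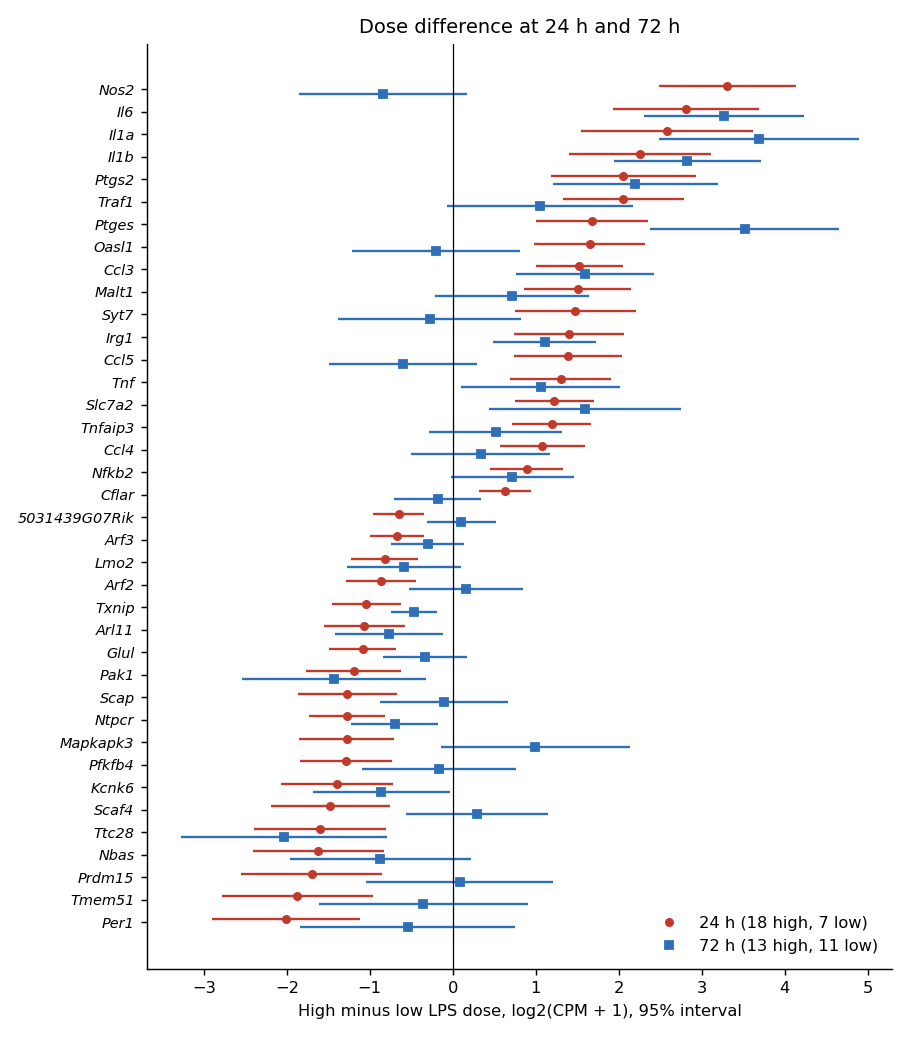
Difference between high and low dose on the log2(CPM + 1) scale at 24 h (red circles; 18 high, 7 low) and 72 h (blue squares; 13 high, 11 low) for genes called at 24 h and tested at both times, with 95% intervals. Il6, Il1a, Il1b and Ptges lie above 0 at both times, while Nos2 moves from 3.31 to -0.84.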

How the data were processed

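Gene expression was measured by 3′-end sequencing of pooled, T7-amplified RNA. The authors quantified reads with Salmon 0.7.1, per the paper against Ensembl build 81, while the submitters' processing notes name the build mm8. They summed the reads of a gene's transcripts, divided by all mapped reads and deposited the values as CPM, per the file headers, which the paper calls TPM. In a library, 73.1% to 87.2% of the low values came out whole, with a tolerance of 0.1 reads, so counts were not recovered and no count model was used. CPM are relative to all mapped reads, so a change in abundant genes moves the others.

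Of 784 culture columns, 423 were used and 361 were not. Values were log2(CPM + 1) transformed, genes above 5 CPM in at least 4 of 65 cultures were kept, and limma 3.58.1 in R 4.3.3 was fitted to the 3 groups at 24 h with plate as a term, a trended prior and Benjamini-Hochberg adjustment over all genes tested. Fold changes are on that log2 scale, which understates changes of low genes. At 72 h and for the difference between times the same model was used. A culture at 72 h labelled LPS_hi with the low dose was left out. Descriptions were made in Python 3.11.15 with pandas 2.3.3 and scipy 1.17.1. The fit was tested on simulated data with independent noise between wells and 1 dose effect for all plates. That test cannot check calls of genes whose dose difference varied between plates.

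Named were members of the gene lists, module hub genes, the 10 largest rises and falls among genes called, the 10 largest low-dose responses among similar genes (each with a mean of at least 10 CPM in the higher group) and the 5 largest changes of the class called at the high dose only. Genes outside the rule are marked. Members and lists were chosen with earlier results of these data known. Alternatives changed the plate term, plates, pseudocount, filter, scaling, groups in the fit, depth, minimum fold, test and cultures.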

Additional observations from a re-analysis of the deposited data

Results flagged for a closer look

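Among the 36 genes named by rank or as module hubs, a culture of the low-dose group stood apart from the other 6 by Dixon's test in 2, and chance flags about 1 in 20 groups. Hpgd was at 0.290 CPM in low-dose replicate 6, against 1.32 to 2.36 CPM in the others. Ccl2 was at 92.3 CPM in low-dose replicate 4, against 352 to 520 CPM in the others.

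The dose difference at 72 h, less that at 24 h, passed the test of the difference between times (limma, adjusted p < 0.05) for 5 of the genes named by rank. Some other members of the gene lists, such as Cd68 and Slpi, passed it too and are given further below. The change was -4.15 for Nos2 (adjusted p = 2.33e-05), -2.27 for Ccl22 (adjusted p = 0.0406), -2.09 for Rasgrp1 (adjusted p = 0.0411) and -1.45 for Marco (adjusted p = 0.0379) on the log2(CPM + 1) scale. For Il1rn it was 2.14 (adjusted p = 0.0406), with a dose difference of 0.43 at 24 h and 2.57 at 72 h. Cultures at the 2 times were on different plates.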

How the results depend on the processing

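Of 43 dose calls, 3 were made in every limma setting, and all 43 kept their sign in every setting in which they were tested. The count of 43 (24 higher, 19 lower) was 21 (15 and 6) without plate, 9 (4 and 5) on the plates with both doses, 20 (13 and 7) without a filter and 199 (103 and 96) with all 24 h conditions in the fit. It was 68 with 40 higher at a pseudocount of 5 and 0 (0 and 0) by the exact rank-sum test, and rescaled values gave 37 higher and 11 lower. Graded genes (23) numbered 4 without plate, 5 on the shared plates, 12 without a filter and 66 with all conditions. Genes called at the high dose only (13) numbered 4 on the shared plates, 7 without a filter, 60 with all conditions and 5 with responders taken from the mean of both doses. Genes with a smaller response at the high dose (2) numbered 4 without plate, 0 on the shared plates, 8 and 4 at pseudocounts of 0.25 and 5, 1 without a filter, 4 after rescaling, 34 with all conditions, 5 with depth and 0 with the mean of both doses. Similar genes (960) numbered 583 on the shared plates, 468 of them shared with the 960. They numbered 694 and 991 at pseudocounts of 0.25 and 5, and 202 with an interval within 1.5-fold. Undetermined genes (2407) numbered 851 at a pseudocount of 5 and 815 with a mean above 20 CPM. Calls against untreated (2617 and 2795) numbered 1482 and 1632 at a pseudocount of 5 and 1253 and 1354 with a mean above 20 CPM. At 72 h the 255 calls became 402 without plate, and the 92 differences between times became 180. The cause of these shifts was not tested. The shared plates hold fewer cultures and also gave other estimates, as for Il1a, Ccl5 and Arl11 above, and filters change the genes tested.

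Leaving out 1 culture gave 25 to 74 dose calls, 16 to 44 higher and 8 to 32 lower, 14 to 38 graded genes, 6 to 23 called at the high dose only, 1 to 11 with a smaller response, 845 to 965 similar genes and 2364 to 2546 undetermined genes. The total moved by more than 1.5 times without low-dose replicate 2 (25), 3 (27) or 4 (68) and without high-dose replicate 11 (74). Leaving out high-dose cultures and a term for edge wells, which gave 54 calls including all 43, were chosen after seeing the data. Rescaling moved the median difference of all genes at the high dose from -0.30 to -0.15. No paired analysis was possible because replicate numbers come from no label. The intervals reached a median of 0.71 to either side, and the part of depth in their width was not tested.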

Other observations

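At 72 h the dose contrast also called genes that were not called between doses at 24 h. Of 25 lysosome and lipid handling genes, 12 were lower at the high dose at 72 h, with a list median of -0.59 beside -0.12 over the genes tested at both times. Cd68 differed between doses by -0.96 at 72 h (95% interval -1.18 to -0.75, limma adjusted p = 1.25e-08) and by -0.02 at 24 h, and the change between times was -0.94 (adjusted p = 0.00576). Apoe, a lipid carrier, differed by -0.88 at 72 h and 0.35 at 24 h. Of 12 identity genes of microglia and macrophages, 6 were lower, among them the complement genes C1qa (-1.72), C1qb (-1.77) and C1qc (-2.03). Trem2 differed by -1.66 at 72 h, after 0.07 at 24 h.

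In the other direction, Cd14 was called at 72 h with 1.55 after 0.83 at 24 h, Socs3 with 2.25, Lcn2 with 2.91 and Clec4e with 1.93, none of which was called between doses at 24 h. Slpi, a secreted protease inhibitor, had 3.86 at 72 h and 0.39 at 24 h, a change between times of 3.48 (adjusted p = 0.00441). The 72 h cultures came from a single cell lot, and their high-dose wells lay away from the plate's middle in 10 of 13 cases against 2 of 11 at the low dose, whose part in these values was not tested.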
